A study of Mus musculus with 18 samples.

Results

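The 9 ischemia-reperfusion livers of a mouse study of IL-22 were compared with each other, to describe which genes differed most from one injured liver to the next. The genes were chosen by measured values. Of 47729 genes in the deposited table, 9749 had a mean normalized count of at least 50 over these 9 libraries. The 300 of them with the largest standard deviation (SD) of log2(normalized count + 1) were kept, which is 3.08% of the genes considered. All 9 livers had undergone ischemia-reperfusion, in which the blood supply of the liver is interrupted and then restored. Per the labels, 3 came from wild-type mice (Wt), 3 from Il22-/- mice, which lack the cytokine IL-22, and 3 from Il22bp-/- mice, which lack its soluble binding protein. The 9 sham-operated livers of the series were not used. The columns are headed IR1 to IR9 and carry no genotype, so no library was given one, and every spread below includes any difference between the 3 genotypes. Sex, age, strain background, the time of ischemia and of reperfusion, and the liver lobe are not stated in the labels. The labels call the samples triplicates of each genotype and do not say whether each came from 1 animal, so any p-value measures only the spread between these samples.

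Ischemia followed by reperfusion damages hepatocytes directly and then draws in neutrophils. Injured liver cells switch on immediate early transcription factors, heat shock proteins and chemokines within hours, while the synthesis of bile acids and other hepatocyte functions can decline. Mouse liver also differs strongly between the sexes: the pulsatile growth hormone of males drives major urinary protein (Mup) genes and Cyp4a12, and the steadier hormone of females drives a set of Cyp2, Cyp3 and sulfotransferase genes. IL-22 signals through IL-22RA1 and IL-10RB on hepatocytes, and IL-22BP, encoded by Il22ra2, binds it in solution.

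The libraries held 10176617 to 12558179 reads each, recovered as whole numbers from the normalized counts, with 18316 to 19741 genes detected. Mitochondrially encoded genes took 2.94% to 3.82% of the reads. As a check for a library deposited more than once, counts were compared between libraries, and the closest pair, IR3 and IR6, had a chi-square of 15.8 per degree of freedom. The hepatocyte markers Alb, Apoa1, Ttr and Serpina1a summed to 490490 normalized counts in IR4 and 841178 in IR6, so that all 9 libraries carried the RNA of liver. Markers of exocrine pancreas summed to at most 8.37 and those of skeletal muscle to at most 24.5. In a bulk sample, fewer cells of a type and less RNA per cell cannot be told apart.

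IR5 and IR8 stood apart from the other libraries in a way that the labels do not describe. They contained both Xist, the RNA that silences an X chromosome in females, and transcripts of the Y chromosome. Xist was at 542 in IR5 and 964 in IR8, and Ddx3y, a Y-linked RNA helicase, was at 264 and 202 in the same libraries. Mup7, a male-biased gene, and Cyp2b9, a female-biased gene, were likewise both present, at 6950 and 680 in IR5 and at 5204 and 590 in IR8. Whether RNA of several animals was combined in these libraries was not tested, and the results below are also given without both of them where that moves a value by more than 1.5 times or where a count rests on them. Without IR5 and IR8, 222 of the 300 genes were again among the 300 most variable.

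The SD was 0.28 on the log2 scale at the median of all 9749 genes, 1.24 at the median of the 300 and 4.92 for Xist, the most variable gene. An SD above 2 was found for 42 genes and one above 3 for 21. Just inside the limit lay Acot1, Chil3 and Gm10319, each with an SD of 1.01, and just outside it Slc22a7 (1.01), Ppm1k (1.00) and Cd33 (1.00). Counting noise, estimated at the mean level of each gene, was small for the 300 genes, at a median of 0.425% of the variance and at most 3.45%. Of the 300, 54 were below 10 in their lowest library, and the estimate does not describe the noise at such low values. In the annotation, 287 of the 300 were protein coding. Chromosome 4 held 36 of them out of 642 genes considered there (5.61%), including all 12 Mup genes, which lay between positions 59964294 and 62150863 of GRCm38. The Y chromosome held 3 of 3, while the X chromosome held 2 of 243.

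The 300 genes fell into a few programs. Grouped by their correlation over the 9 libraries (average linkage, joined up to a distance of 0.5, where distance is 1 minus Pearson r), 292 genes formed 4 clusters of 145, 79, 40 and 28 genes and 8 genes stayed outside. The first principal component held 49.5% of the variance of the 300 genes, the second 35.4% and the third 5.63%. Component 1 was led by Cyp4a12a, Eif2s3y, Mup7, Cyp4a12b and Moxd1 at one end and by genes that included Xist, Cyp2b9, Cyp2a4 and Cyp3a44 at the other. Component 2 was led by Sprr1a, Mup7, Ddx3y, Eif2s3y and Hspa1a at one end and by Derl3, Gm2788, D630039A03Rik, Syne4 and Gm4756 at the other. Component 3 was led by genes that included Sult3a1, Cyp2a4, Cyp2b9 and Cyp2c69 at one end and by Gsta1, Cidec, Tyrp1, Cyp26b1 and Dyrk3 at the other. The end named first is the positive one. Without the genes of the 2 clusters that hold Ddx3y and Xist, 232 genes remained and their first component held 69.5% of the variance.

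**Figure D1:**
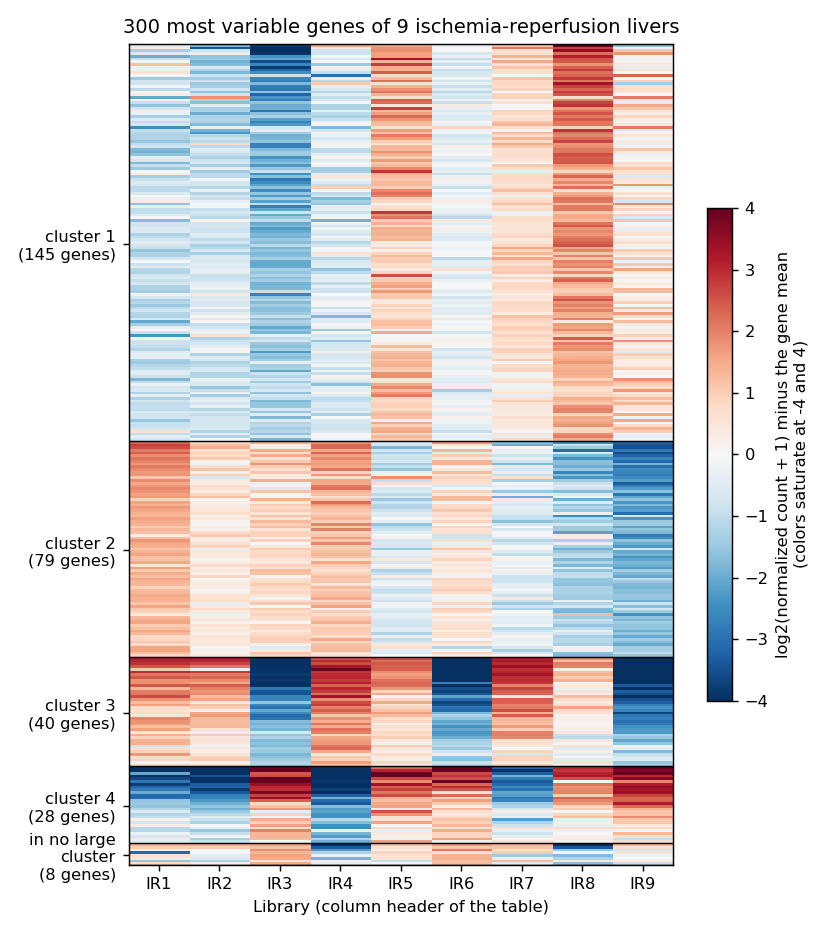
Each row is 1 of the 300 genes and each column 1 of the 9 ischemia-reperfusion libraries. Color gives log2(normalized count + 1) minus the mean of the gene, and saturates at -4 and 4. Cluster 1 is highest in IR8 and lowest in IR3, cluster 2 is lowest in IR9, and clusters 3 and 4 change in opposite directions, with IR5 and IR8 at or above the mean in both.

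The genes with the largest spread were those of sex. Cluster 3 (40 genes) held the Y-linked genes Eif2s3y, Ddx3y and Kdm5d together with the Mup genes, and cluster 4 (28 genes) held Xist with female-biased cytochromes. Their mean profiles over the 9 libraries had a range of 5.31 and 5.32 on the log2 scale. These values come from the same libraries that chose the genes and are a description. Because the libraries fall into separate groups for these genes, their correlations say little beyond that separation.

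Xist (X chromosome, 103460366 to 103483254 of GRCm38, minus strand, a long noncoding RNA) was at 4305, 3772 and 2312 normalized counts in IR3, IR6 and IR9. It was between 0 and 11.5 in IR1, IR2, IR4 and IR7. IR5 and IR8 lay between these ranges. The strand setting of the counting is not given in the sources used here, so reads of Xist and of its antisense partner Tsix cannot be told apart.

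Eif2s3y, which encodes a subunit of a translation initiation factor, was at 0, 0.919 and 0 in IR3, IR6 and IR9 and at 303 to 479 in IR1, IR2, IR4 and IR7. It was at 330 in IR5 and 191 in IR8, so IR8 was the lowest library after IR3, IR6 and IR9. Kdm5d, a histone demethylase, was at 23.1 in IR8 against 74.5 to 106 in IR1, IR2, IR4, IR5 and IR7. Uty, another Y-linked gene whose mean was below 50, was at 0 in IR3, IR6 and IR9 and at 27.5 in IR8.

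Of 44 male-biased genes considered, 31 (70.5%) were among the 300, and 28 of these were in cluster 3. The share was 3.08% for all genes. Mup20, which encodes the pheromone darcin, ranged from 106 in IR9 over a median of 11329 to 27222 in IR4. Mup7 ranged from 26.6 in IR9 to 14657 in IR7. Both were below 213 in IR3, IR6 and IR9 and between 5204 and 27222 in the other libraries. Many of the Mup genes are near-identical copies, so reads may have been split between Mup genes, and each Mup value is uncertain to that extent. Cyp4a12a and Cyp4a12b, fatty acid hydroxylases that may also share reads, were at 5.51 or less in IR3, IR6 and IR9. They reached 1237 and 449 in IR7. Cyp7b1, an oxysterol hydroxylase, ranged from 77.2 in IR6 to 6093 in IR4. The complement components C6 and C9 belonged to this cluster as well, with C6 between 89.4 in IR9 and 2676 in IR4 and C9 between 969 and 5630 in the same libraries. Moxd1, a monooxygenase-like protein, was at 3385 in IR4 and at 223 or less in the other 8 libraries.

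Of 40 female-biased genes considered, 22 (55.0%) were among the 300, and 19 of these were in cluster 4. Cyp2b9, a cytochrome P450, was at 1.02 to 3.82 in IR1, IR2, IR4 and IR7 and at 1071 to 1473 in IR3, IR6 and IR9. Cyp2b9 and its neighbour Cyp2b13 are similar in sequence and may share reads. Cyp2a4, a steroid hydroxylase, was highest in IR5 at 3256. Its values in IR3 and IR6 were 762 and 840.5, both below IR5 and below IR8 (1190). Sult3a1, a sulfotransferase, did the reverse. It was at 1429 in IR3 and 740 in IR6 but at 111 in IR9, 107 in IR5 and 29.8 in IR8. Cyp2a4 and Sult3a1 thus differed in the order of the libraries. Cyp2a5, which is similar to Cyp2a4 and may share reads with it, was also higher in IR5 (1711) and IR8 (1152.5) than in IR3 (459) and IR6 (276). In IR4, however, Cyp2a5 was at 567 and Cyp2a4 at 0. How far shared reads shaped the order of Cyp2a4 was not tested. Some other female-biased members did not follow Xist as closely. Sult1e1, an estrogen sulfotransferase named after its values were seen, was in cluster 1 and highest in IR7 at 772. Cyp17a1, a steroid hydroxylase named in the same way, was highest in IR3 and IR6, at 3064 and 2113, but was at 635 in IR4 against 611 in IR5. Hamp2, an antimicrobial peptide related to hepcidin, ran from 11.2 in IR4 over a median of 219 to 1162 in IR9. Hamp2 did separate the libraries, at 44.9 or less in IR1, IR2, IR4 and IR7 and at 219 or more in the others. When IR5 and IR8 were left out, 36 male-biased and 23 female-biased genes were among the 300 most variable.

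**Figure D2:**
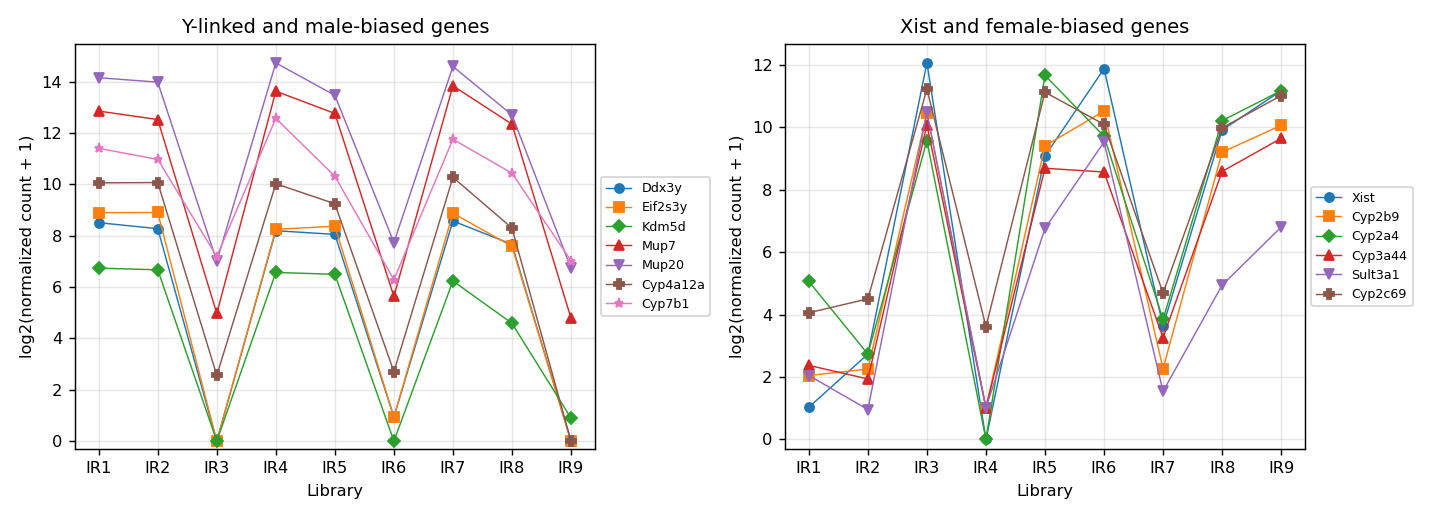
Points give log2(normalized count + 1) in each of the 9 libraries for Y-linked and male-biased genes (left) and for Xist and female-biased genes (right). Lines only join the points of 1 gene. IR3, IR6 and IR9 are low on the left and high on the right, IR1, IR2, IR4 and IR7 are the reverse, and IR5 and IR8 are raised in both panels.

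The largest group, cluster 1 with 145 genes, held immediate early, heat shock, chemokine, neutrophil, globin and matrix genes. Its mean profile was highest in IR8, at 1.83 above the mean on the log2 scale, followed by IR5 at 1.26 and IR7 at 0.67. It was lowest in IR3, at -1.76. IR8 was the highest library for 98 of the 145 genes and IR3 the lowest for 107. The median r of a gene to this mean was 0.92 over 9 libraries, which the clustering by the same correlations largely sets, and the genes share libraries and size factors. Plaur, Maff, Dusp1 and Map3k6 had the highest correlation to the mean of the cluster.

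Immediate early genes are switched on by stress and growth signals without new protein synthesis. Of 37 considered, 24 (64.9%) were among the 300, and all 24 of them were in cluster 1. Atf3, a stress-induced transcription factor, ranged from 55.8 in IR3 over a median of 282 to 2615 in IR8, an SD of 1.83. Fosb, a subunit of AP-1, ranged from 20.6 in IR3 over a median of 54.1 to 929 in IR5. Fosl1, another AP-1 subunit, ranged from 11.8 in IR3 over a median of 153 to 896 in IR8, and its SD went from 1.88 to 1.25 without IR3. For Atf3 and Fosb, IR5, IR7 and IR8 were the 3 highest libraries, whereas for Fosl1 IR9 (682) exceeded IR5 (606) and IR7 (303). Dusp5, a phosphatase that restrains ERK signalling, ranged from 41.1 in IR3 to 1300 in IR5. The classical members Fos, Jun and Myc, named here after their values were seen, peaked in IR8 at 979, 6564 and 1316.

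The immediate early spread rested largely on IR5 and IR8. Without them, 12 of the list were among the 300 most variable genes. The SD of Fosb went from 1.83 to 0.83, that of Dusp1 from 1.47 to 0.96 and that of Ccn1 from 1.20 to 0.69. The p53 targets Gdf15, Plk3 and Btg2 were also in cluster 1, as 3 of 17 considered (17.6%). Plk3 and Btg2 were also members of the immediate early list, so this count is not particular to p53 targets. Gdf15, a stress-induced cytokine, was at 1588 in IR8, 1037 in IR5 and between 73.4 and 339 elsewhere. Leaving out IR8 alone left 1 p53 target among the 300 most variable. Without both libraries no p53 target was among the 300 most variable, and the SDs of Gdf15, Plk3 and Btg2 went from 1.60, 1.03 and 1.02 to 0.88, 0.59 and 0.58.

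Of 23 heat shock proteins considered, 3 (13%) were among the 300. Hspa1a, the inducible chaperone HSP70, ranged from 4.90 in IR3 over a median of 57.9 to 1400 in IR8, an SD of 2.33, and the next highest library was IR5 at 232. Its near copy Hspa1b ranged from 97.9 in IR3 to 3441 in IR8. Hspb1, the small chaperone HSP25, ranged from 75.4 in IR3 to 1067 in IR8. Reads of Hspa1a and Hspa1b may have been split between the pair, so each value is uncertain. IR4 was above IR9 for all 3, with Hspa1a at 228, Hspa1b at 701 and Hspb1 at 460. The mean profile of cluster 1 had the reverse order, at -0.56 in IR4 and 0.50 in IR9. Other members of the cluster also had IR4 above IR9, among them Slc16a3 (274 against 208) and Basp1 (181 against 83.3). Without IR5 and IR8, 3 of 23 were again among the 300 most variable.

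The promoters of 4 inducible members are shown as examples, picked after values and matches were seen, because each holds a short sequence known to bind a stress-responsive factor. RefSeq promoters of GRCm38.p6 were found for 224 of the 300 genes, and the 250 bases before each transcription start were searched on both strands. The motifs were the heat shock element (GAANNTTC), an NF-kB site (GGGA and TTCC with any 2 bases between), an AP-1 site (TGANTCA), a cAMP response element (TNACGTCA), a STAT site (TTC and GAA with any 3 bases between) and the ER stress element (CCAAT and CCACG with any 9 bases between). Sequences read 5′ to 3′ on the strand of the gene, and capitals mark the match.
Hspa1a, chr17:34972157-34972406, minus strand, heat shock element: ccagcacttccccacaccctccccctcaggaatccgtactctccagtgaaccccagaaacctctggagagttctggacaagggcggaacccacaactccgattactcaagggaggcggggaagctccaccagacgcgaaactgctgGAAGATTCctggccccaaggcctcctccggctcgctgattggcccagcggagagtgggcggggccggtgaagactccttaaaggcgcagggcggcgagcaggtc
Cxcl2, chr5:90903649-90903898, plus strand, NF-kB site: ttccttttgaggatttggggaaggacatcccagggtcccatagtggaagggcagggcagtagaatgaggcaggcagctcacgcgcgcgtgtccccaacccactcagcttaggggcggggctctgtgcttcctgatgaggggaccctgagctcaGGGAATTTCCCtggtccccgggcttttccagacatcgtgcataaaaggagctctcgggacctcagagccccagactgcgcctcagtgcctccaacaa
Atf3, chr1:191183334-191183583, minus strand, cAMP response element: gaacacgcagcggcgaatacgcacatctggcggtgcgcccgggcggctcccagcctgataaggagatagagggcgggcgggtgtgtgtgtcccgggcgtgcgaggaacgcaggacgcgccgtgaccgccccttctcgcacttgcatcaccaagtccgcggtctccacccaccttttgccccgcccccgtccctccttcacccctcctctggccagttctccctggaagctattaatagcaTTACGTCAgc
Derl3, chr10:75893148-75893397, plus strand, ER stress element on the opposite strand: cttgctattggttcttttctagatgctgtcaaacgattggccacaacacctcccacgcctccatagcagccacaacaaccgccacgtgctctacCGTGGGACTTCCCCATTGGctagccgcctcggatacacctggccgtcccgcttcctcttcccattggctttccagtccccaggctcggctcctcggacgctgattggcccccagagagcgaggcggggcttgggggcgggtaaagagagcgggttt
The Cxcl2 stretch is a pair of overlapping matches, 1 on each strand. The RefSeq start of Atf3 used here lies 34706 bases from the 5′ end of the gene in GENCODE.

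Shares are given over all 27025 RefSeq promoters and over the 7742 promoters of genes with a mean of at least 50, from which the 300 come. The heat shock element was in 6.79% and 4.90% of these and in 8 of 110 matched cluster 1 genes (7.27%), among them Hspa1a, Hspa1b and Hspb1. The NF-kB site was in 1.21% and 1.16% and in 3 of 110 cluster 1 genes (2.73%), namely Cxcl2, Cxcl3 and Cxcl10. It was also in 3 of 58 cluster 2 genes (5.17%). The cAMP response element was in 2.63% and 4.52% and in 7 of the 110 (6.36%), including Atf3, Dusp1 and Dusp5. The AP-1 site was in 6.82% and 4.29%, in 11 of the 110 and in 6 of 58 cluster 2 genes (10.3%). The STAT site was in 7.09% and 5.67%, in 6 of the 110 and in 4 of 23 cluster 4 genes (17.4%). The ER stress element was in 0.122% and 0.181% and in 1 of 58 matched cluster 2 genes, Derl3. The AP-1 site was thus about as common in cluster 2 as in cluster 1. A match is a run of letters in this window and no evidence that a factor was bound.

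Chemokines and cytokines that attract leukocytes followed cluster 1. Of 24 considered, 8 (33.3%) were among the 300, with 7 of them in this cluster. Cxcl2 and Cxcl3, which attract neutrophils, ranged from 15.7 and 2.94 in IR3 to 1094 and 403 in IR8. Both had IR8, IR7 and IR5 as the 3 highest libraries. Cxcl10, an interferon-inducible chemokine, was at 830 in IR8 and 373 in IR5 against 45.0 in IR1. Its relative Cxcl9, which acts on the same receptor, did not follow it. Cxcl9 was highest in IR1 at 978, lowest in IR3 at 82.3, and at 209 in IR8. Il1b, the cytokine IL-1 beta, ranged from 27.4 in IR3 to 250.1 in IR7. Tnfaip3, a brake on NF-kB signalling, was at 706 in IR8 and at 224 or less elsewhere. With both left out, 5 of the 24 were among the 300 most variable, and the SD of Cxcl10 went from 1.37 to 0.83 and that of Tnfaip3 from 1.22 to 0.76.

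Of 15 neutrophil markers considered, 8 (53.3%) were among the 300, and all 8 of them were in cluster 1. Retnlg, a secreted protein of neutrophils, ranged from 12.7 in IR3 over a median of 118 to 712 in IR8, an SD of 1.59. Trem1, an activating receptor, ranged from 6.85 to 127 and Mmp8, neutrophil collagenase, from 11.8 to 203 in the same libraries. The fixed markers S100a8, S100a9, Ly6g, Cxcr2, Retnlg and Csf3r, none at 0 in any library, summed to 296 in IR3 and to 3764 in IR8, a 12.7-fold range. IR5 (2404) and IR7 (2227) were next. The range was 7.53-fold without IR5 and IR8 and 5.14-fold without IR3. The monocyte markers Ly6c2, Ccr2, Chil3 and Plac8 were high in the same libraries, from 170 in IR3 to 709 in IR5, 686 in IR8 and 556 in IR7, a 4.16-fold range. Of 18 monocyte and infiltrating macrophage genes, 4 (22.2%) were among the 300, all 4 in cluster 1. They were Thbs1, Hmox1, Spp1 and Chil3. Thbs1, Hmox1 and Spp1 were also members of other lists, those of matrix, heme and NRF2, and bile duct genes. Only Chil3, just inside the SD limit, is also a fixed monocyte marker, so this count is not particular to monocytes. The sum for Kupffer cells, the resident macrophages, had a 1.76-fold range and that of sinusoidal endothelium a 1.61-fold range. Within the Kupffer cell sum, Clec4f ranged from 779 in IR4 to 1381 in IR3, and the scarcer Timd4 from 13.3 to 75.4 in the same libraries. Of 16 Kupffer cell genes, 0 were among the 300 (1 of 16 without IR3 or without IR8). At the 3.08% share of all genes, a list of 16 would hold about 1 member or none. The median SD of these 16 was 0.40, above the 0.28 of all genes. Leaving out IR3 left 3 neutrophil markers among the 300 most variable, and leaving out IR5 and IR8 left 4. Whether the number of neutrophils set the level of the chemokines, or of any other cluster 1 gene, was not tested.

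Globin genes moved with the same libraries. Hbb-bs, a beta globin, ranged from 57.8 in IR3 over a median of 517 to 2035 in IR8. The alpha globins Hba-a1 and Hba-a2, which may share reads, ranged from 9.79 and 4.90 in IR3 to 473 and 369 in IR8. The erythroid markers Hba-a1, Hbb-bs and Alas2 summed to 132 in IR3 and 2812 in IR8, a 21.3-fold range, which was 9.89-fold without IR5 and IR8 and 6.82-fold without IR3. Alas2, the erythroid enzyme of heme synthesis, is also on the male-biased list, and was in cluster 3 and not with the globins. It was highest in IR4 at 706, where the marker sum was 1103. In IR3, IR6 and IR9 it was at 64.6, 87.3 and 51.5. The labels do not say how much blood was left in each piece of liver, and its part in the spread of cluster 1 was not tested.

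Cluster 1 also held matrix and clotting genes. Of 36 stellate cell and matrix genes, 9 (25.0%) were among the 300. All 9 were in cluster 1. They included Thbs1 (thrombospondin), which ranged from 143 in IR3 to 3074 in IR8, and Plat and Plaur of plasminogen activation. Of 40 coagulation and complement genes, 7 (17.5%) were members, 4 of them in cluster 1 and 3 in cluster 3. The stellate cell markers Lrat, Reln, Des and Dcn had a 1.67-fold range in sum and none was among the 300. When IR8 was left out, 5 of the 36 were among the 300 most variable, and 2 when IR5 was left out too. Of 27 hypoxia and glycolysis genes, 4 (14.8%) were members. The lactate exporter Slc16a3 ranged from 34.3 in IR3 to 1486 in IR8 and the glucose transporter Slc2a1 from 179 to 2316. Leaving out IR8, alone or with IR5, left 1 of the 27 among the 300 most variable, and leaving out IR9 gave 7.

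The markers Krt19, Epcam, Sox9 and Krt7 of bile duct cells summed to 295 in IR3 and 2621 in IR5, an 8.89-fold range, which was 4.51-fold without IR5 and IR8 and 4.68-fold without IR3. Sox9, which injured hepatocytes can also express, carried most of that sum, at 229 in IR3 and 2374 in IR5. Krt8, a keratin of hepatocytes and duct cells, ranged from 2773 in IR3 to 20345 in IR8 and was at 17590 in IR9. Hmox1, the heme-degrading enzyme, ranged from 363 in IR3 to 5874 in IR5. Srxn1, an antioxidant enzyme controlled by NRF2, was highest in IR9, at 8208 against 951 in IR3. Gsta1, a glutathione transferase, followed IR9 too, at 162, but its second highest library was IR2 at 135.

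Cluster 2, with 79 genes, ran the other way in part. Its mean profile was highest in IR1, at 1.45 above the mean on the log2 scale, and IR4, at 1.27, and lowest in IR9, at -2.02, and IR8, at -1.24. IR9 was the lowest library for 62 of the 79 genes. The mean profiles of clusters 1 and 2 had an r of -0.75 over the 9 libraries, which share their size factors. They were not mirror images: IR9 was only 0.50 above the mean in cluster 1, and IR3, the lowest library of cluster 1, was at 0.70 in cluster 2, below IR1 and IR4. Syne4, Lrrc3, 2610528J11Rik and 2310001H17Rik had the highest correlation to the mean of the cluster.

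Derl3 (chromosome 10, 75893413 to 75895941 of GRCm38, plus strand), a component of the disposal of misfolded proteins from the endoplasmic reticulum, had an SD of 2.04, the largest in the cluster. It ranged from 33.5 in IR9 over a median of 547 to 1553 in IR1, and was below 210 in IR5, IR7, IR8 and IR9. Derl3 and Asns, an asparagine synthetase in cluster 3, were the members among 27 genes of the unfolded protein and integrated stress response considered (7.41%). The chaperone Hspa5, with an SD of 0.21, ranged from 17988 in IR4 to 26933 in IR5. Sdf2l1 and Pdia4, also of the endoplasmic reticulum, had SDs of 0.67 and 0.64 and were low in some of the libraries where Derl3 was low. Sdf2l1 was at 962 in IR9 and 1151 in IR8 with a high of 3318, and Pdia4 at 2897 and 2865 with a high of 10001. Creld2, with an SD of 0.35, was also lowest in IR8 and IR9, at 1707 and 2052. Xbp1, with an SD of 0.24, went the other way. It was highest in IR5, IR9 and IR8, at 5078, 4865 and 4629, and at 3223 to 3931 in the other libraries. Hspa5, Sdf2l1, Pdia4, Creld2 and Xbp1 were named after their values were seen.

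Saa3, an acute phase serum amyloid A protein, ranged from 582 in IR9 over a median of 7741 to 43212 in IR1. IR5, IR7, IR8 and IR9 were the 4 lowest libraries, at 3768 or less. Saa1 and Saa2, the main hepatocyte forms, had smaller SDs of 0.89 and 0.96 and were not members. They too were lowest in IR9, at 42894 and 49688, against highs of 221711 and 299297. Of 41 acute phase and STAT3 target genes, 5 (12.2%) were among the 300. A2m, a protease inhibitor of plasma, was at 43.8 in IR9 and at 242 to 1264 elsewhere, and its SD went from 1.46 to 0.82 without IR9. Socs1, a feedback inhibitor of cytokine signalling, was in cluster 1 instead, at 15.7 in IR3 and 239 in IR5.

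Of 47 xenobiotic and bile acid genes considered, 13 (27.7%) were among the 300. Of these, 3 were in cluster 2, 7 in cluster 4, 2 in cluster 3 and 1 in cluster 1. Those in cluster 2 were Cyp7a1, Cyp8b1 and Slco1b2. Cyp7a1, the rate-limiting enzyme of bile acid synthesis, ranged from 26.6 in IR9 over a median of 106 to 371 in IR1. Cyp8b1, the sterol hydroxylase that sets the kind of bile acid, ranged from 131 in IR9 over a median of 1220 to 4531 in IR1. Slco1b2, an organic anion transporter of hepatocytes, ranged from 558 in IR7 to 4897 in IR1. Of 24 gluconeogenesis, glycogen and fasting genes, 4 (16.7%) were members and 2 of these were in cluster 2. They were Ppp1r3b and Ppp1r3c, which guide a phosphatase to glycogen and were highest in IR1, at 1430 and 633, and lowest in IR9 (136) and IR8 (74.5). Without IR5 and IR8 the SD of Ppp1r3c went from 1.19 to 0.75. Aox3, Adh4, Hal and Bhmt, enzymes of aldehyde, alcohol, histidine and betaine metabolism, were in the cluster as well. Cyp8b1, these 4 enzymes and the following pair were named after their values were seen. Prtn3, a protease of neutrophil granules, and Cebpe, a transcription factor of granulocytes, were in cluster 2 and not with the neutrophil markers: Prtn3 was highest in IR4 at 331 and at 25.3 in IR8.

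**Figure D3:**
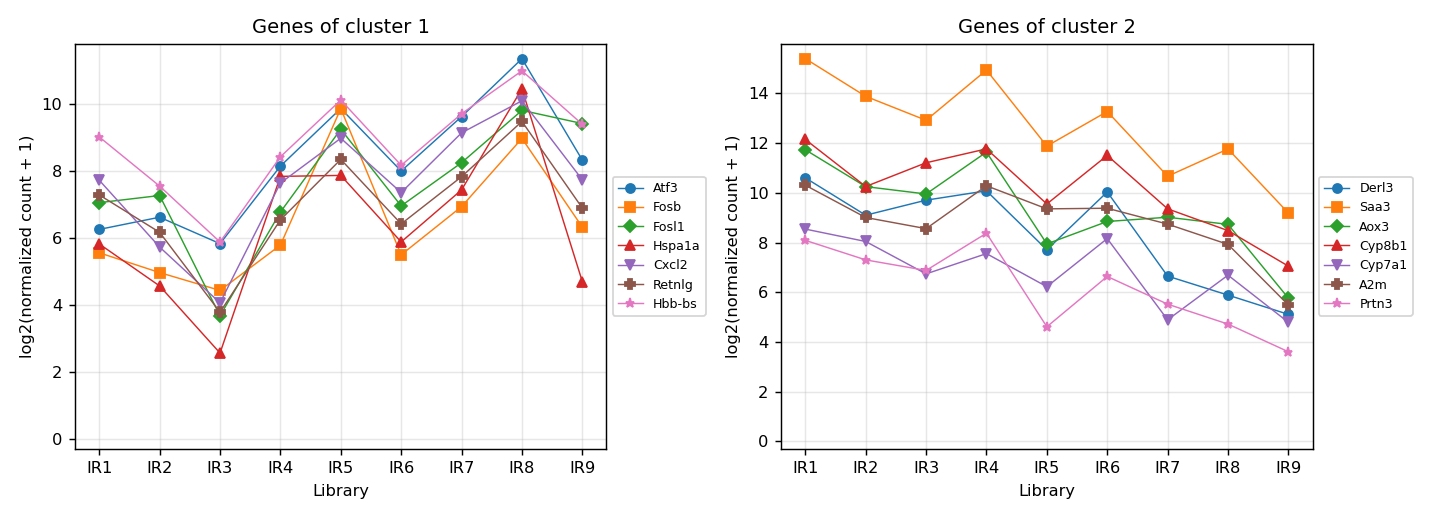
Points give log2(normalized count + 1) in each of the 9 libraries for 7 genes of cluster 1 (left) and 7 of cluster 2 (right). Lines only join the points of 1 gene. IR3 is lowest on the left for all 7 genes, and IR9 is lowest on the right for all 7.

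Some lists had no member. None of the 25 hepatocyte genes, 27 cholesterol synthesis genes, 23 circadian clock genes, 13 antigen presentation genes or 9 mitochondrially encoded genes considered was among the 300, and at a share of 3.08% lists of these sizes would hold about 1 member or none. The median SD was 0.53 for the clock genes and 0.42 for cholesterol synthesis, above the 0.28 of all genes, and 0.30 for the hepatocyte genes. The lists for interferon-stimulated genes (3 of 36, or 8.33%, and 1 without IR3) and periportal genes (2 of 26, or 7.69%) had a few members. Of 45 genes of fatty acid oxidation and PPARA targets, 10 (22.2%) were members, spread over several clusters. Among these, Cyp4a12a and Cyp4a12b were also on the male-biased list, and Cyp4a14, Acot3 and Cyp4a10 on the female-biased list. The count is therefore not particular to fatty acid oxidation. Pdk4, a kinase that limits the use of glucose, ranged from 94.0 in IR3 to 3887 in IR5. Cyp4a14, a fatty acid hydroxylase, was outside the 4 clusters, and was highest in IR6 and IR3, at 7919 and 7011, and lowest in IR4 at 394. Cidec, a lipid droplet protein, was highest in IR9 at 2179 and lowest in IR1 at 193. Altogether 155 of the 300 genes were in 1 or more of the 42 lists.

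**Figure D4:**
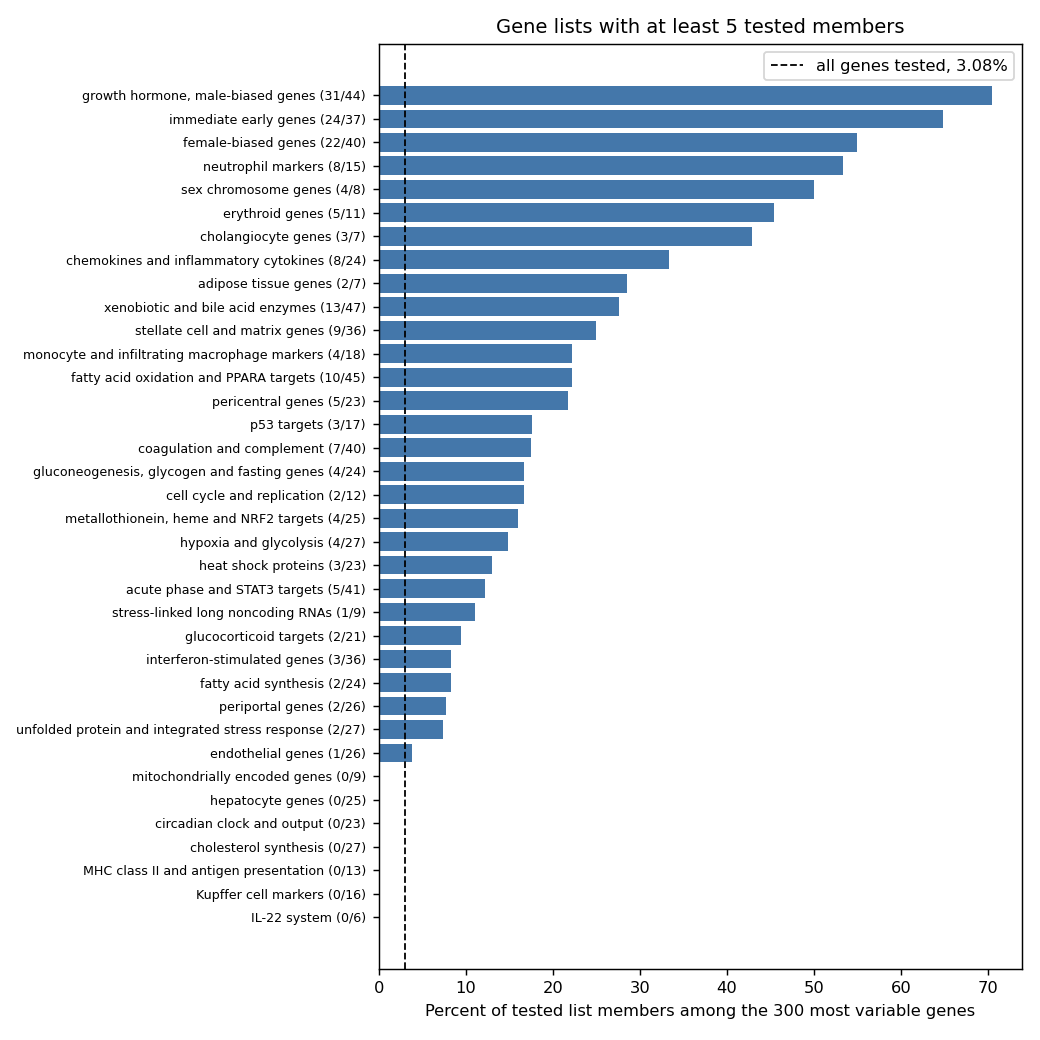
Bars give the percent of the genes of each list, among those with a mean of at least 50, that are among the 300 most variable, for lists with at least 5 such genes. The dashed line marks 3.08%, the share for all 9749 genes, and the male-biased (70.5%) and immediate early (64.9%) lists lie farthest above it.

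None of the genes of the IL-22 system was among the 300, and Il22, Iltifb and Il22ra2 had means below 50. Il22 (chromosome 10, 118204942 to 118210047, plus strand) had no read in any of the 9 libraries. Iltifb, a near copy of Il22 that may share its reads, had 8 reads in IR6, 1 each in IR4 and IR5 and none in the other 6 libraries. Il22ra2, the gene of IL-22BP (chromosome 10, 19621998 to 19634681, plus strand), had 43 reads in IR7, 64 in IR8 and 38 in IR9, 1 read in IR5 and none in the other 5. A count of 0 allows up to 3 reads at this depth, for counting error only. These values were not used to give a library a genotype. The receptor genes Il22ra1 and Il10rb were detected in all 9, Il22ra1 from 50.6 in IR7 to 148 in IR9 and Il10rb from 79.5 in IR1 to 127 in IR8.

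The components were compared with 2 measures that did not choose the genes, the read total and the number of genes detected, in 6 relations over the 9 libraries. None passed a Benjamini-Hochberg threshold of 0.05 in the exact two-sided permutation test. Component 3 and the read total had a Pearson r of 0.73 (exact p = 0.0261, adjusted 0.143) and a Spearman rho of 0.73 (exact p = 0.0311, adjusted 0.177). Without the 2 libraries farthest from the median read total, IR7 and IR8, r was 0.81. Component 1 and the number of genes detected had an r of -0.66 (exact p = 0.0475, adjusted 0.143) and a rho of -0.67 (exact p = 0.0589, adjusted 0.177), and r was -0.70 without IR4 and IR5. For component 2, r was 0.04 with the read total and 0.48 with the genes detected (exact p = 0.925 and 0.188).

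Of the 8 genes outside the 4 clusters, Tyrp1, Pmel, Cyp4a14, Cyp4a10, Pcp4l1 and Peg3 formed a small cluster, and Ugt2b37 and Loxl4 another. Tyrp1 and Pmel are pigment genes. Tyrp1, an enzyme of melanin synthesis, was at 0 in IR4 and IR8 and at 71.1 to 105 in the other 7 libraries. Pmel, which forms the fibrils of melanosomes, was at 5.11 in IR4 and 5.21 in IR8 and at 95.4 to 143 in the others. The libraries are set apart here by these same values, so the separation is a description. Further pigment genes were looked up after these values had been seen. Tyr, the tyrosinase of melanin synthesis, and Mlana were at 0 in IR4 and IR8 and detected in each of the other 7. Oca2 was at 0 in both as well, but had 7 reads in IR1 and only 2 or 3 in the rest. With so few reads, Oca2 does not set IR4 and IR8 apart. Slc45a2 was at 1.02 and 0.745 in these 2 libraries and at 10.4 to 26.6 in the others. Dct was at 49.0 and 36.5 against 145 to 221, and Gpnmb at 18.4 and 24.6 against 70.2 to 116. The transcription factor Mitf, also made by other cells, did not separate them, at 59.2 and 42.4 within a range of 38.1 to 84.7. Kit, a receptor of pigment cells and other cells, did not either, at 25.5 and 42.4 within a range of 17.8 to 42.4. The labels state neither coat color nor strain background, and IR4 and IR8 were not alike in the sex genes or in cluster 1.

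**Figure D5:**
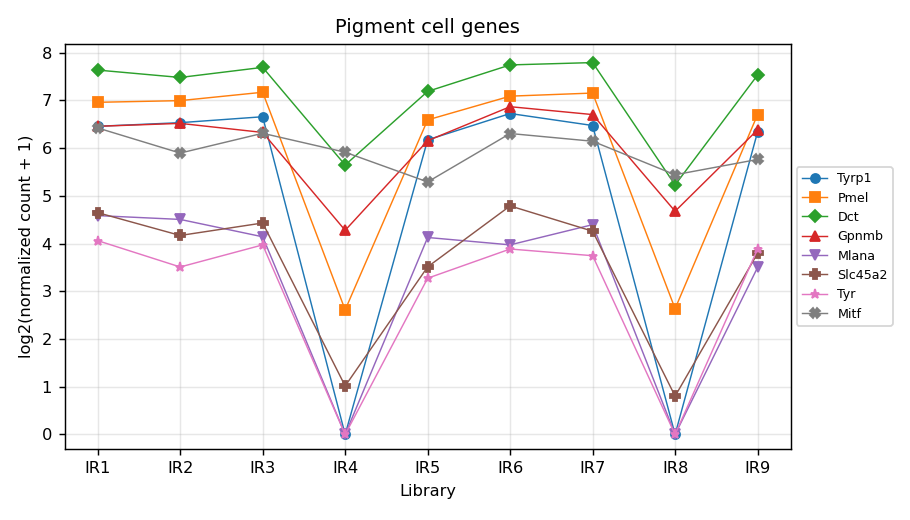
Points give log2(normalized count + 1) of 8 genes of pigment cells in each of the 9 libraries, and lines only join the points of 1 gene. IR4 and IR8 are lowest for Tyrp1, Pmel, Dct, Gpnmb, Mlana, Slc45a2 and Tyr, while Mitf does not separate them.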

How the data were processed

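Liver RNA was extracted with a phenol reagent before library preparation, as the protocols in the labels state. The build GRCm38, Trimmomatic 0.33, the aligner STAR 2.5.0a and DESeq2 1.14 appear in the submitters' processing notes. The read counter was not given in the sources used here, nor its strand setting or annotation. The deposited values are a signal: gene counts that the authors divided by size factors, called normalized counts here. In each column all values (100%) were whole multiples of the smallest value above 0, within 0.01, which gave the reads. Of the 18 value columns, 9 were not used. Identifiers were matched to GENCODE vM21 symbols for 47224 of 47729 genes, and positions are 1-based.

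The SD of log2(normalized count + 1), components and clusters were computed with Python 3.11.15, numpy 2.4.6, pandas 2.3.3 and scipy 1.17.1, after checks on simulated data. The clusters described have at least 10 genes. Of 1130 list genes, 1119 were found. Members and lists were chosen with earlier results of these data known. The genes named were the 15 with the largest SD, the top 4 of each list with 3 or more members, the 4 closest to each cluster mean, the 3 on either side of the limit, the IL-22 genes, the 5 leading each end of a component and the sex chromosome genes; further names were chosen after their values were seen, and some items are not reported here. Depth was 10176617 to 12558179 reads a library. Alternatives changed the pseudocount, the mean minimum, the scaling, the measure of spread, the clustering or the libraries.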

Additional observations from a re-analysis of the deposited data

Results flagged for a closer look

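In all, 155 gene and list profiles were examined on the scale of log2(normalized count + 1). For each, the gap of an end library to its nearest neighbour was divided by the range over the 9 libraries. In 8 of the 155 this ratio was above the 95% critical value of Dixon's test. Chance alone gives about 1 in 20, so 8 of 155 is about the number chance gives. Many of these genes were chosen for a large SD, which an outlying library itself raises, so the values below are a description. IR9 was the low library for A2m (0.506) and for the mean levels of the unfolded protein and integrated stress response list (0.504), the cholesterol synthesis list (0.504) and the gluconeogenesis, glycogen and fasting list (0.535). IR3 was the low library for Fosl1 (0.505) and for the mesothelium and serosa list (0.639), which had only Slpi, also a neutrophil gene, above the mean minimum. IR8 was the high library for Adm (0.570), the vasodilator peptide adrenomedullin, at 293 normalized counts against 19.9 to 64.2 elsewhere. IR6 was the high library for Iltifb (0.668), on 8 reads.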

How the results depend on the processing

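The deposited scaling and the mean minimum bear on which genes are members, and 9 libraries of 3 unassigned genotypes limit what the spread describes. Of the 300 genes, 198 were kept with a mean minimum of 20, 166 with 200 and 111 with none; 254 to 290 were kept when 1 library was left out. Chemokine members (8) numbered 13 with a minimum of 20, 4 with 200 and 5 without IR5 and IR8. Neutrophil markers (8) numbered 3 with a minimum of 200, 5 with none, 5 by the median absolute deviation, 4 without IR5 and IR8, and 3 to 8 when 1 library was left out. Immediate early genes (24) numbered 14 with no minimum and 12 without IR5 and IR8. Female-biased genes (22) numbered 14 with a minimum of 200.

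Leaving out 1 library gave 44.3% to 58.7% for component 1, 24.7% to 40.7% for component 2 and 4.0% to 6.65% for component 3. Without IR5 and IR8 they held 67.6%, 22.1% and 3.24%, and without the genes of the clusters of Ddx3y and Xist 69.5%, 15.7% and 4.72%. With 150 genes component 1 held 57.8% and component 2 28.6%. Component 3 held 6.54% with no minimum and 4.44% when scaled to the column total. Complete linkage gave 8 clusters. The relation of component 2 to the read total reversed, to a rho of -0.067 and to an r of -0.31 without IR7 and IR8.

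The SD of a named gene moved by more than 1.5 times without 1 library for genes that included A2m, Fosl1 (1.88 to 1.25 without IR3), Adm (1.12 to 0.63 without IR8), Cyp26b1 (1.08 to 0.66 without IR1) and Iltifb (1.03 to 0.44 without IR6). With a pseudocount of 10 it moved as far for genes with values near 0: Eif2s3y (4.11 to 2.61), Ddx3y (3.97 to 2.46), Cyp4a12b (3.76 to 2.48), Kdm5d (3.04 to 1.62), Cyp2b13 (3.33 to 2.16), Tyrp1 (2.86 to 1.46), Uty (2.94 to 1.41), Il22ra2 (2.62 to 1.16) and Iltifb (1.03 to 0.26). The alternatives without IR5 and IR8, without the sex clusters and for the marker sums were added after the data were seen. No paired analysis was possible because all libraries used belong to 1 group and their headers hold neither genotype nor replicate number.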
